A study of Homo sapiens with 4 samples.

Results

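JUND is a subunit of the transcription factor AP-1, and its mRNA was examined here together with those of its relatives JUN, JUNB, FOS, FOSL1 and FOSL2. These 6 genes were taken by their gene identifiers from 2 lists of N4-acetylcytidine (ac4C) peaks and from a table of differential peaks. JUND was chosen by its measured values in the table of differential peaks, so its peaks are given as a description and no test was run on them. The relatives were added by family. Of the 6 genes, 3 had a peak (JUND, JUNB and FOSL2), among 6723 genes with a peak in either list. JUN, FOS and FOSL1 had none. The 6 genes held 5 of the 6403 peaks of control cells, 2 of the 6417 peaks of NAT10-depleted cells and 4 of the 2807 differential peaks.

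The peaks came from acRIP-seq of FaDu, an established human line of hypopharyngeal squamous carcinoma. Cells carried a control short hairpin RNA (shNC) or a hairpin against NAT10 (shNAT10), delivered by lentivirus to make stable lines. Whether a line was a pool or a single clone is not stated. Fragmented RNA was pulled down with an antibody against ac4C (IP) and read beside the RNA before the pull-down (input). The authors' methods name total RNA as the starting material, and their results name isolated mRNA. There was 1 IP and 1 input library for each of the 2 conditions, 4 libraries in all. No value below therefore has a replicate or an error between cultures. A difference between the conditions has no replicate check, and no p-value between them was computed.

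AP-1 is a dimer of basic leucine zipper proteins. The Jun proteins JUN, JUNB and JUND pair with each other or with a Fos protein (FOS, FOSB, FOSL1 or FOSL2), while Fos proteins need a Jun partner to bind DNA. FOS, JUN and JUNB are classical immediate-early genes, switched on within minutes by growth factors and by MAP kinase signalling, and JUND is made more steadily. In squamous epithelium AP-1 acts on genes of proliferation, differentiation and invasion. NAT10 is the acetyltransferase that writes ac4C, a mark laid on cytidines of ribosomal RNA, transfer RNA and, as reported for many transcripts, mRNA. The comparison of shNC with shNAT10 cells was made to find transcripts whose ac4C depends on NAT10.

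Several features of the lists bear on every value. The authors' fold enrichment is the linear ratio of IP over input within a condition. How the libraries were scaled is not stated, so the folds of the 2 conditions are set side by side. Read depth is unknown, because the files hold peaks and not reads. The lists hold only peaks that passed the caller, so a gene without a row may still carry ac4C, and no upper limit follows from its absence. The median fold enrichment was 12.4 in each list, and shNC and shNAT10 peaks had a median length of 210 nt and 209 nt. The files show IP enrichment and not mRNA level, so the depletion of NAT10 could not be checked from them. The cultures were bulk samples, in which fewer cells carrying a transcript and less of it per cell cannot be told apart. Of 8 squamous markers, 3 had a peak in each list (the epithelial transcription factor TP63, the adhesion gene CDH1 and the keratinocyte gene SFN), beside 21.1% and 21.3% of all protein-coding genes. A peak is not a level of expression, so these counts do not test the identity of the cells. The evidence for the TP63 peak in shNC was weak, with a log10 p-value of -2.17. No peak was assigned to KRT5, KRT14, KRT17, KRT6A or EPCAM. Of 5 markers of other cell types only the collagen gene COL1A1 had a peak, at a fold enrichment of 16.6 in shNC (1 gene, beside the same 21.1%), and PTPRC, CD3E, VIM and PECAM1 had none.

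JUND, the least inducible of the Jun genes, carried the strongest AP-1 peak of either condition. Its gene spans 1929 nt of chromosome 19 in GRCh38, minus strand, positions 18279694 to 18281622. The shNC list held 3 JUND peaks and the shNAT10 list held 1. At least 3 peaks were listed for 240 of the 4977 genes in the shNC list (4.82%). JUND is counted among these although 2 of its 3 peaks there shared most of their length. The JUND peaks formed 2 groups, a long peak near the 3′ end that was listed in both conditions and a pair of overlapping peaks in the coding sequence that was listed in shNC only.

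The long peak ran from 18279790 to 18280262, a length of 473 nt, and ended 96 nt before the 3′ end of the gene. Counted from the 5′ end of the gene, it covered nt 1361 to 1833. The table of differential peaks holds a peak with the same ends and classes it as 3′-UTR. Its fold enrichment was 85.9 in shNC and 31.3 in shNAT10. In shNC only 178 of the 6403 peaks (2.78%) had a fold enrichment as high or higher. In shNAT10 this was 1092 of 6417 peaks (17.0%). The log10 of the authors' p-value of the peak was -957 in shNC and -387 in shNAT10, where a lower value is stronger evidence for the peak. By this p-value the peak was among the lowest 3.03% in shNC and the lowest 5.13% in shNAT10, so it stood high in both lists. It was also long, with 7.56% of shNC peaks at its length or above.

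Because the 3′-UTR peak of JUND had the same ends in both lists, its folds referred to the same nucleotides. Such identical ends were found for 333 peaks, or 5.20% of the shNC list. The ratio of the shNC fold to the shNAT10 fold was 2.74 for JUND, which is 1.46 on the log2 scale. Over the 333 peaks the median log2 ratio was 0.05, with the 10th percentile at -1.39 and the 90th at 1.48. JUND lay close to that upper percentile, and 38 of the 333 peaks (11.4%) had a log2 ratio at or above its own. The fold was higher in shNC for 176 of the 333 peaks (52.9%), so the peaks as a set were spread on both sides of equal enrichment. In the table of differential peaks the JUND peak had a single fold enrichment of 48.2, which lies between the folds of the lists. The same was true of 77 of the 86 identical peaks that the table also holds (89.5%).

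**Figure D1:**
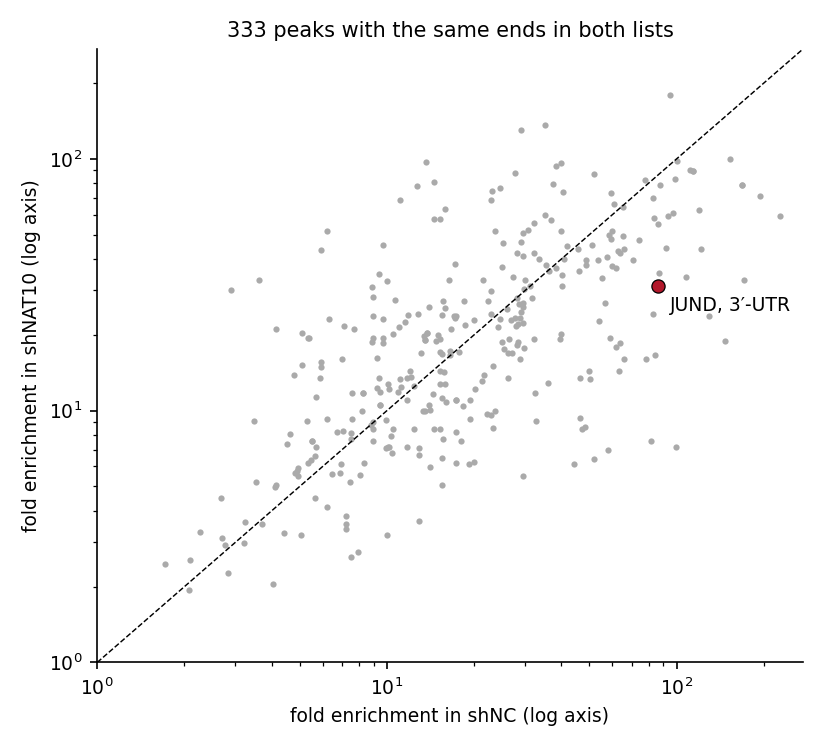
Each point is 1 of the 333 peaks with the same ends in both lists, with its fold enrichment of IP over input in shNC on the horizontal axis and in shNAT10 on the vertical axis (both log axes; dashed line, equal folds). The 3′-UTR peak of JUND (85.9 in shNC and 31.3 in shNAT10) lies below the line, where 176 of the 333 peaks lie.

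The table of differential peaks lists positions of the sequence CXXCXXCXXCXX, in which X is any base, so that a cytidine recurs after each pair of bases. For the 3′-UTR peak of JUND it lists 4 such sites, at 18280234, 18280205, 18280171 and 18280138. They stood 29, 34 and 33 nt apart, at nt 1389, 1418, 1452 and 1485 from the 5′ end of the gene when the listed positions are counted from 1. All 4 thus lay in the upstream part of the peak, nearest to the coding sequence. At least 4 sites were listed for 361 of the 2807 differential peaks (12.9%). Given its length, the JUND peak had 0.846 sites per 100 nt, against 0.467 over all 3′-UTR peaks of the table. The letters of the peak were not read here, since only the positions of the sites are listed.

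The coding-sequence peaks of JUND were far weaker than its 3′-UTR peak. They ran from 18280635 to 18280870 (236 nt) and from 18280647 to 18280883 (237 nt) and shared 224 nt, so they describe nearly the same stretch of RNA. Together they covered 249 nt, from nt 740 to nt 988 from the 5′ end, and lay 372 nt upstream of the 3′-UTR peak. Their fold enrichments were 7.30 and 8.87 in shNC, and no shNAT10 peak overlapped either. Both were below the list median of 12.4, and 73.3% and 65.5% of shNC peaks had a fold as high or higher. Their log10 p-values were -44.2 and -49.2. By p-value they ranked higher, among the lowest 21.8% and 20.4% of the list. Overlap between peaks of the same gene was rare, with 56 of 6403 shNC peaks (0.875%) and 54 of 6417 shNAT10 peaks (0.842%).

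The table of differential peaks holds 2 narrower JUND peaks at this place, both classed as CDS. They ran from 18280676 to 18280854 (179 nt) and from 18280694 to 18280870 (177 nt) and shared 161 nt. Each overlapped both shNC peaks and no shNAT10 peak. Their fold enrichments in the table were 3.92 and 3.27, below the median of 7.38 for peaks classed as CDS. They list the same 2 CXXCXXCXXCXX sites, at 18280807 and 18280777, which lay 30 nt apart at nt 816 and 846 from the 5′ end. At least 2 sites were listed for 1071 of the 2807 differential peaks (38.2%). The CDS peaks of JUND had 1.12 and 1.13 sites per 100 nt, against 0.623 over all CDS peaks of the table. With every peak counted, 722 nt of the JUND gene (37.4%) lay under a peak in shNC and 473 nt (24.5%) in shNAT10.

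**Figure D2:**
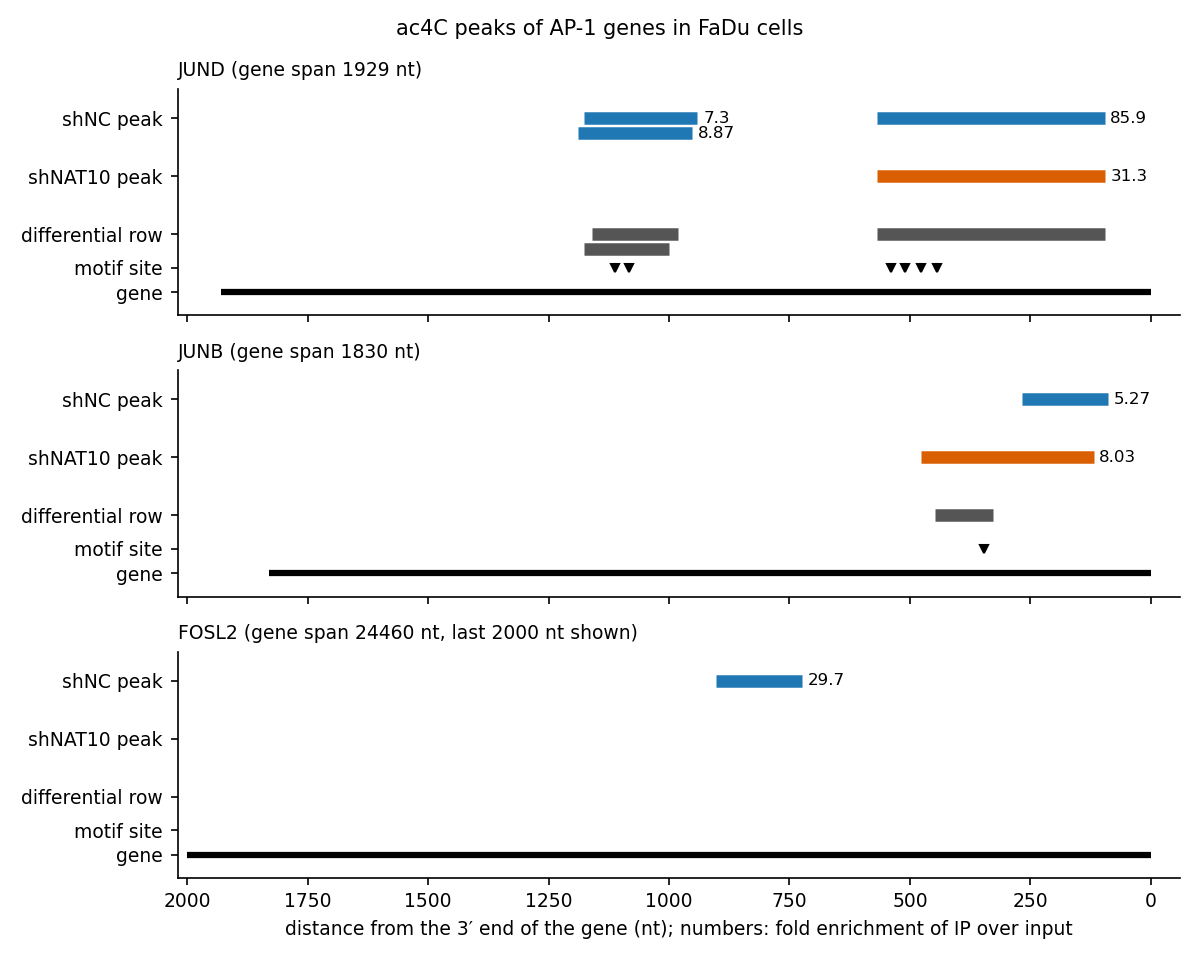
Peaks of JUND, JUNB and FOSL2 drawn to scale by their distance in nt from the 3′ end of the gene, with shNC peaks in blue, shNAT10 peaks in orange, differential peaks in grey and listed CXXCXXCXXCXX sites as triangles. Numbers are the fold enrichment of IP over input; JUND has the same 3′-UTR peak in both conditions (85.9 and 31.3) and coding-sequence peaks in shNC only (7.30 and 8.87).

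JUNB, an immediate-early Jun protein that often restrains the activity of JUN, had 1 peak in each condition. Its gene lies on the plus strand of chromosome 19, from 12791486 to 12793315, a span of 1830 nt. The shNC peak ran from 12793047 to 12793226 (180 nt) with a fold enrichment of 5.27. The shNAT10 peak ran from 12792838 to 12793196 (359 nt) with a fold enrichment of 8.03. The fold was thus higher in shNAT10 than in shNC, the reverse of the order at the 3′-UTR peak of JUND, and a difference between the genes was not tested. Both JUNB folds were low, with 85.6% of shNC peaks and 70.8% of shNAT10 peaks as high or higher. The log10 p-value was -7.05 in shNC and -24.9 in shNAT10.

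The ends of the JUNB peaks differed, so their folds do not refer to the same stretch. The peaks shared 150 nt, which is 83.3% of the shNC peak and 41.8% of the shNAT10 peak. They ended 89 nt and 119 nt before the 3′ end of the gene, on either side of the 96 nt of the 3′-UTR peak of JUND. Among the 1450 differential peaks classed as 3′-UTR that could be placed on a gene, the median distance to the 3′ end was 315 nt, and 33.0% lay within 100 nt. JUNB had 180 nt (9.84% of its span) under a peak in shNC and 359 nt (19.6%) in shNAT10. The differential peak of JUNB, classed as 3′-UTR, ran from 12792868 to 12792987 (120 nt). It lay wholly within the shNAT10 peak and ended 59 nt before the shNC peak began, so it marks the stretch that was listed in shNAT10 only. Its fold enrichment in the table was 2.20, and 97.9% of differential peaks had a fold as high or higher. It lists 1 CXXCXXCXXCXX site, at 12792969, or 0.833 sites per 100 nt.

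FOSL2, which codes for the Fos protein FRA-2, had a peak in shNC only. Its gene lies on the plus strand of chromosome 2, from 28392858 to 28417317. The peak ran from 28416414 to 28416593 (180 nt), 724 nt before the 3′ end of a gene span of 24460 nt. Its fold enrichment of 29.7 was the highest among the AP-1 genes after the 3′-UTR peak of JUND, and 18.6% of shNC peaks were as high or higher. Its log10 p-value of -11.5 was ordinary, with 46.9% of shNC peaks as low or lower. It thus paired a high fold with a middling p-value, the opposite of the coding-sequence peaks of JUND. FOSL2 had no shNAT10 peak and no differential peak, and no region class is listed for it.

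**Figure D3:**
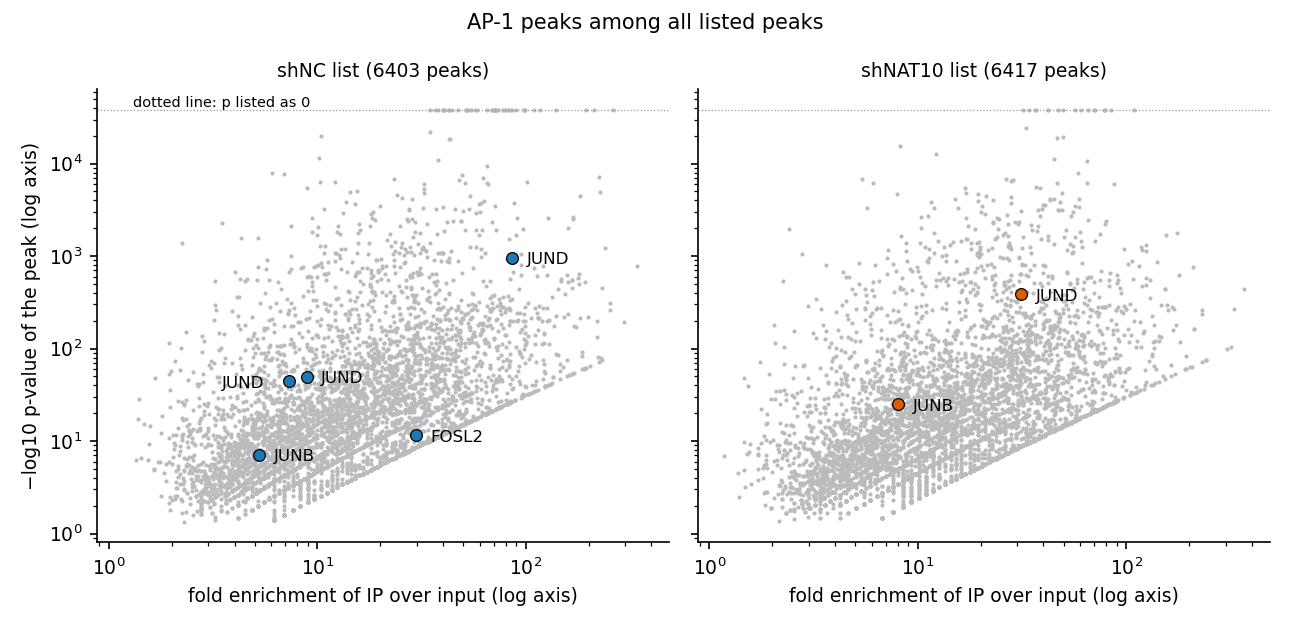
All peaks of the shNC list (6403, left) and of the shNAT10 list (6417, right) by fold enrichment of IP over input (log axis) and by -log10 of the p-value (log axis), with AP-1 peaks in colour. The 3′-UTR peak of JUND stands toward the upper right in both panels, its coding-sequence peaks and JUNB lie at low folds, and FOSL2 joins a fold of 29.7 to a log10 p-value of -11.5 near the lower edge of the cloud.

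JUN, FOS and FOSL1 had no row in either list or in the table of differential peaks. No peak under any other gene identifier lay within their spans either, on chromosome 1 from 58780791 to 58784047 for JUN, on chromosome 14 from 75278828 to 75282230 for FOS and on chromosome 11 from 65892049 to 65900545 for FOSL1. JUN and FOS are the founding partners of AP-1, and FOSL1 codes for FRA-1, a Fos protein prominent in squamous carcinoma. Their level in the input was not analysed here, because the files hold no read counts. By family, all AP-1 peaks of shNAT10 cells and 4 of the 5 in shNC cells therefore belonged to Jun genes.

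The AP-1 counts were read against all peaks. In shNC, 3 of 5 AP-1 peaks had no overlapping shNAT10 peak (the JUND pair and FOSL2), beside 48.3% of all shNC peaks (3095 of 6403, 95% Wilson interval 47.1 to 49.6). In shNAT10, 0 of 2 AP-1 peaks lacked an overlapping shNC peak, beside 48.5% of all shNAT10 peaks (3112 of 6417, 47.3 to 49.7). With so few peaks these counts cannot be set apart from the background, and the JUND pair shares most of its nucleotides. With genes compared in place of positions the shNC count was 1 (FOSL2), because JUND has a shNAT10 peak elsewhere on the gene. The AP-1 genes with a peak were 3 of 6 in shNC and 2 of 6 in shNAT10, beside 21.1% and 21.3% of the 19987 protein-coding genes of RefSeq. Of the 3 AP-1 genes with a peak, 2 had a differential peak, beside 36.9% of all genes with a peak (2483 of 6723). JUND was chosen on that table, so nothing is read from this share. The Wilson intervals cover the sampling of peaks only.

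The coding-sequence peak of JUND with the fold of 8.87 was compared with other peaks of its kind, those in shNC only that a differential peak classed as CDS overlaps. There were 164 such peaks in 158 genes, with a median fold enrichment of 11.7. The JUND fold was in the lower part of this range, with 63 peaks (38.4%) at or below it. Its p-value was among the stronger, since the median log10 p-value was -12.90 and only 11 peaks were as low as JUND or lower. The genes nearest in log2 fold enrichment were FXYD3 (8.95), NDUFAF2 (8.78), RBM17 (8.98), METTL2A (8.63) and IGFBP7 (8.44), which differed from JUND by 0.013 to 0.072 on the log2 scale. Their log10 p-values ran from -103 for FXYD3 to -7.44 for METTL2A, so genes alike in fold differed widely in p-value. The read coverage behind each p-value is unknown.

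Around JUND, within 100 kb, peaks were listed for LSM4 and PGPEP1. LSM4, a subunit of the ring that binds U6 small nuclear RNA, lies on the same strand. Its main peak began at 18306920, 25.3 kb from JUND, in both lists, with a fold enrichment of 40.1 in shNC and 23.9 in shNAT10. The fold was higher in shNC, but the log10 p-value was -116 in shNC and -324 in shNAT10, the reverse order. At the 3′-UTR peak of JUND the fold was higher and the log10 p-value lower in shNC. The LSM4 peak reached to 18307489 in shNC and to 18307459 in shNAT10, so its stretch differed slightly. A weaker LSM4 peak with a fold of 4.51 was listed in shNAT10 only. PGPEP1, a peptidase gene on the opposite strand 88.0 kb away, had a peak in shNAT10 only with a fold of 26.2.

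The wider family of basic leucine zipper genes had peaks in both conditions, with no common order of folds. Of 38 further AP-1 and related genes, 11 had a peak in shNC (28.9%) and 14 in shNAT10 (36.8%), with 9 in both, beside the 21.1% and 21.3% of all protein-coding genes. At an FDR of the peak of at most 1e-10 the counts were 5 and 9, and the share of all genes at that limit was not computed. A peak in shNC alone was listed for the AP-1 repressor JDP2 (32.5) and the heme sensor BACH1 (11.1). Their log10 p-values were -9.5 and -2.78. A peak in shNAT10 alone was listed for 5 genes, with fold enrichments of 18.6 for CREB5, 11.6 for MAFF, 16.1 for NFE2L2, 34.6 for CEBPA and 150.0 for CEBPD. In the same order the log10 p-values of these peaks were -4.91, -10.5, -4.15, -41.7 and -50.0. Of all 6723 genes with a peak in either list, 4977 had one in shNC and 4987 in shNAT10. Many genes of the whole series thus had a peak in 1 condition alone. With so few genes in this list, nothing is read from the counts of 2 and 5. NFE2L2 codes for NRF2, the regulator of the oxidative stress response, and CEBPA and CEBPD code for CCAAT enhancer-binding proteins.

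Of the 9 genes with peaks in both conditions, 8 had highest peaks that shared at least 1 nt, although their ends differed, so that the folds do not refer to exactly the same stretch. The fold was higher in shNC for 3 of these, namely the stress factor ATF4 (10.1 against 8.17), the small Maf gene MAFK (8.84 against 4.88) and NFE2L1 (16.2 against 7.09). The MAFK peaks shared only 31 nt, with log10 p-values of -9.49 in shNC and -9.47 in shNAT10. The fold was higher in shNAT10 for the other 5. The largest ratio of these was at CEBPB, with a fold of 5.67 in shNC and 30.0 in shNAT10, followed by CEBPG, with 5.18 and 20.3, but the peaks shared only 31 nt at CEBPB and 61 nt at CEBPG. XBP1, a factor of the unfolded protein response, had 31.8 and 34.0. DDIT3, the stress factor CHOP, had folds of 28.3 in shNC and 49.0 in shNAT10 at peaks that did not overlap, so these are not set in order. Of the peaks of this list, 5 of 14 in shNC and 11 of 20 in shNAT10 had no overlap in the other condition. Beside the 48.3% and 48.5% of all peaks, the counts lie on either side of the background.

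Of 17 kinases and regulators that act on AP-1, 4 had a peak in shNC (23.5%) and 5 in shNAT10 (29.4%), with 3 in both. These shares lie near the 21.1% and 21.3% of all protein-coding genes. A further shNC peak, with a fold of 9.67 and under an identifier that was not named, began 112 nt beyond the 3′ end of MAP2K1 in RefSeq and is not in the count. The 3 genes with peaks in both were MAPK3, MAP2K2 and MAP2K7. MAPK3 codes for the kinase ERK1 (highest fold 18.6 in shNC and 21.8 in shNAT10) and MAP2K2 for MEK2 (9.34 and 13.5). MAP2K7 codes for a kinase upstream of JNK (11.1 and 23.1). Only the MAPK3 peaks covered the same stretch, with the same ends in both lists. The highest peaks of MAP2K2 shared 1 nt and those of MAP2K7 did not overlap, so their folds are not set in order. The log10 p-values were -597 in shNC and -3.41 in shNAT10 at MAP2K2, and -2.78 and -29.6 at MAP2K7. The evidence was thus weak for the shNAT10 peak of MAP2K2 and the shNC peak of MAP2K7. MAP2K2 had 2 shNAT10 peaks, and only the one with the higher fold is given. The JNK scaffold gene MAPK8IP1 (3.38) and FBXW7 (11.0), which directs JUN to degradation, had a peak in shNAT10 only. Their log10 p-values were -1.47 and -2.67, so the evidence for these peaks was weak. No peak was assigned to the JNK genes MAPK8, MAPK9 and MAPK10 or to MEN1, whose product menin binds JUND.

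Immediate-early genes, which answer the same signals as FOS and JUNB, had peaks in both conditions and no common order of folds. Of 24 genes, 10 had a peak in shNC (41.7%) and 11 in shNAT10 (45.8%), with 7 in both, again beside 21.1% and 21.3% of all protein-coding genes. At an FDR of the peak of at most 1e-10 the counts were 6 and 5, and the share of all genes at that limit was not computed. The counts of the conditions lay close together at both limits, so no order of the conditions is read from them. At IER2 the highest fold was 85.5 in shNC and 16.1 in shNAT10, at peaks that shared 448 nt but did not have the same ends. At the zinc-finger gene EGR1 the folds were 24.4 and 5.07, again higher in shNC, at peaks that shared 60 nt. At IER5 the folds were 2.83 and 11.8 at peaks that did not overlap. The other 4 genes with peaks in both had the higher fold in shNAT10 at overlapping peaks. The folds were 50.1 and 98.0 at IER5L, 46.4 and 65.3 at ZFP36L1, 10.6 and 30.4 at ZFP36L2, and 11.5 and 13.4 at CCN1. The log10 p-value had the reverse order at IER5L (-209 in shNC and -139 in shNAT10) and CCN1 (-38.7 and -21.6). At ZFP36L1 (-124 and -150) and ZFP36L2 (-12.1 and -39.4) it was lower in shNAT10. A peak in shNC alone was listed for MYC (13.1), ZFP36 (8.98) and HES1 (8.63), with log10 p-values of -10.5, -2.17 and -6.73. A peak in shNAT10 alone was listed for KLF4 (11.0), KLF6 (28.7), CCN2 (7.61) and SRF (14.4). In the same order their log10 p-values were -2.67, -7.98, -1.72 and -10.4. The evidence was weak at ZFP36, KLF4 and CCN2. Of all 6723 genes with a peak in either list, 4977 had one in shNC and 4987 in shNAT10. Peaks in 1 condition alone were thus frequent in the whole series, and nothing is read from their number in this list.

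**Figure D4:**
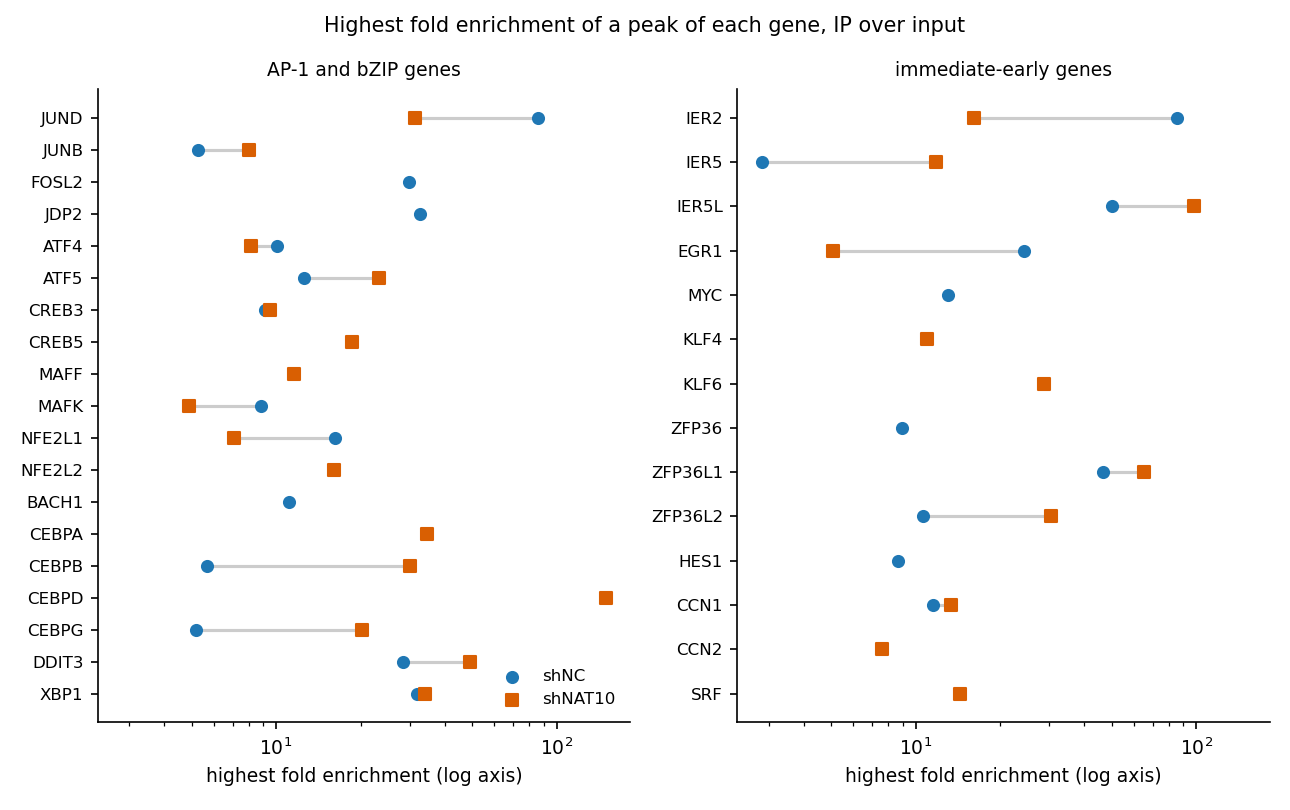
Highest fold enrichment of IP over input (log axis) among the peaks of each gene, with shNC as blue circles and shNAT10 as orange squares; a missing symbol means that no peak was listed. The highest peaks of a gene need not cover the same stretch, and those of DDIT3 and IER5 did not overlap; JUND and IER2 had the higher fold in shNC and ZFP36L2 in shNAT10, each at overlapping peaks.

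Of 18 textbook targets of AP-1 in epithelial and tumour cells, 3 had a peak in shNC (16.7%) and 2 in shNAT10 (11.1%). These counts are small, and beside 21.1% and 21.3% of all protein-coding genes nothing is read from them. The cyclin gene CCND1 had highest folds of 9.57 in shNC and 20.5 in shNAT10, and PLAU, which codes for the protease urokinase, had 13.8 and 39.7. The log10 p-values were -50.6 and -72.1 at CCND1, and -102 and -84.6 at PLAU, where their order was the reverse of the folds. The cell cycle inhibitor gene CDKN2A had a peak in shNC only (7.04). No peak was assigned to the other 15, which include the matrix metalloproteinase genes MMP1, MMP3, MMP9, MMP10 and MMP13.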

How the data were processed

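The authors deposited a peak list for each condition and a table of differential peaks from 4 acRIP-seq libraries of FaDu cells. A list was tied to its condition by a prefix that it shares with the titles of the libraries. The submitters' processing notes name cutadapt 2.5, HISAT2 2.1.0, HOMER 4.10.4 and featureCounts 1.6.3, and a human and a mouse genome build. The peak caller, its limits and the scaling between libraries are not given in the sources used here. In the deposited files the fold enrichment of IP over input is a linear ratio, the p-value is also given as a plain number, and the log10 p-value and log10 FDR are scores on a log scale that can reach minus infinity. The deposited table also has other columns, with region classes, gene symbols and CXXCXXCXXCXX sites. Its columns of the authors' own comparison (log2 fold change, p-value and FDR between conditions) were not used.

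The members, gene lists and comparisons were chosen with earlier results of these data known. Rows were taken by gene identifier. Starts in the lists were counted from 0 and were raised by 1. Peaks overlapped where exonic blocks shared at least 1 bp on the same strand. Positions were set against the RefSeq gene table for GRCh38.p14. Of 6723 identifiers, 2483 were named by the deposited table, 3802 by position and 438 not at all. Where both gave a symbol, 2052 of 2233 (91.9%) were the same, so symbols named by position, PGPEP1 among them, carry that uncertainty. The genes named were the 6 AP-1 genes. In the other lists they were every member with a peak in only 1 condition, or the 12 with the highest folds. To these were added genes within 100 kb of JUND and the 5 genes nearest to its coding-sequence peak. A single listed gene is not reported here. Members with peaks in both conditions were also named, after their values were seen. Depth per library is unknown and every condition had 1 library of each kind, so no test was run; 95% Wilson intervals cover the sampling of peaks only. Alternatives were a fold of at least 4, an FDR of at most 0.05 or 1e-10, peaks that share 50% or more of each other, overlap without strand, genes in place of positions, gene spans in place of identifiers and ranking by p-value. Counting of overlaps was tried on the shNC list against a shuffled copy of itself, with some peaks moved to chromosomes of their own. Every peak left in place was found. Partial overlaps, strand and the 50% limit were not tried in this way. Tables were read with pandas 2.3.3 and numpy 2.4.6 under Python 3.11.15, intervals came from scipy 1.17.1, and plots were drawn with matplotlib 3.10.9.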

Additional observations from a re-analysis of the deposited data

How the results depend on the processing

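Of 29 alternatives over 9 results, 19 left the value close to that reported and 10 moved it. Whether an alternative reversed a result was not assessed. The AP-1 genes with a peak were 3 in shNC and 2 in shNAT10 under every alternative except an FDR of at most 1e-10, where JUNB was lost from shNC and 2 were left. The AP-1 shNC peaks without an overlapping shNAT10 peak went from 3 to 1 (FOSL2) with genes in place of positions, because JUND has a shNAT10 peak elsewhere on the gene. Where peaks had to share 50% or more of each other they were 4, with JUNB added. The share of all shNC peaks without an overlap went from 48.3% to 59.0% where peaks had to share 50% or more of each other, to 30.4% with genes in place of positions, to 50.4% with a fold of at least 4 in both lists and to 36.5% with an FDR of at most 1e-10 in both. The rank of the strongest JUND peak went from 178 to 1804 of 3095 among peaks without an overlapping shNAT10 peak, because only its coding-sequence peaks are among these. At an FDR of at most 1e-10 fewer peaks are kept: the wider AP-1 and related genes with a peak went from 11 to 5 in shNC and from 14 to 9 in shNAT10, and the immediate-early genes from 10 to 6 and from 11 to 5. No paired analysis was possible because there was 1 IP and 1 input library for a condition, and leaving out a library would leave no peaks to compare. Unknown depth limits every statement on a gene without a peak.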
